A study of Homo sapiens with 15 samples.

Results

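Riboflavin, vitamin B2, enters human cells through the SLC52 transporters, riboflavin kinase (RFK) phosphorylates it to FMN, and FAD synthase (FLAD1) converts FMN to FAD. FMN and FAD are the cofactors of flavoenzymes, such as acyl-CoA dehydrogenases, the respiratory chain subunits SDHA and NDUFV1, and the thioredoxin and glutathione reductases. SLC52A2 is widely expressed, whereas SLC52A1 is best known from placenta and SLC52A3 from the intestine.

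The genes described here are the transporters and the enzymes of this route, taken by name from the annotation of the array. They are GPR172B (now SLC52A1), GPR172A (SLC52A2), C20orf54 (SLC52A3), RFK and FLAD1, that is 5 of 30484 gene names, with 8 of 41000 probes. Of the 8 probes, 7 passed the filter for dim signals, which requires a signal well above background in either dye on at least 3 arrays. GPR172B was selected on its low mimic to antagomir ratio on the miR-574-3p arrays, so its values on these arrays are given as a description without a test.

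The samples were A549 cells, an established human lung adenocarcinoma line. For each of 5 miRNAs (miR-766, miR-574-3p, miR-181d, miR-629* and miR-565), cells received 20 nM of a precursor oligonucleotide of the miRNA (mimic cells) or 20 nM of an LNA-modified antisense oligonucleotide against it (antagomir cells), and RNA was taken after 24 h. Each miRNA has 3 dual-color arrays, 15 in all, with mimic cells in Cy5 and antagomir cells in Cy3 on every array, so dye and treatment cannot be told apart within a miRNA. Cells without an oligonucleotide or with a control oligonucleotide were not analysed here, and the labels do not say whether the 3 arrays of a miRNA are separate transfections, so that p values measure the spread between these arrays. In bulk RNA, fewer cells with a transcript and less of it per cell cannot be told apart.

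The number of arrays limits the precision. Between 69.6% and 73.7% of probes were well above background in the antagomir channel of an array, and 69% to 76.2% in the mimic channel. All 8 epithelial and A549 markers examined (KRT8, KRT18, KRT19, EPCAM, AKR1B10, AKR1C1, ALDH1A1 and GPX2) were well above background on all 15 arrays. Of 7 markers of blood, endothelial and muscle cells, CD3E and VWF were too, at mean signals of 20.4 to 57.4 and 7.09 to 21.8, and PECAM1 and DES were on no array. CDKN2A, whose locus is deleted in A549 cells, had a signal of 301 to 555 and was well above background on all 15 arrays; where its probe lies relative to the deletion was not examined. The arrays lay on 4 slides, and miR-766 alone on 1 of them, so that slide and miRNA cannot be told apart for miR-766. Replicate 1 of miR-565 lay on the slide of miR-181d, apart from replicates 2 and 3 of its miRNA.

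GPR172B was set beside miR-574-3p by sequence, because its low ratio belongs to the arrays of this miRNA. The mature miRNA (RefSeq, GRCh38.p14, chr4:38868092-38868113, plus strand) is given with its seed, bases 2 to 8, in capitals. Of the GPR172B probe (NCBI36, chr17:4876829-4876888, minus strand), the 30 bases at chr17:4876853-4876882 are given, and the capitals mark bases 17 to 25 of the probe.
hsa-miR-574-3p: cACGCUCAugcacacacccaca
GPR172B probe window: caacacaggaACGCTCATGgacacctgcac
The capitals of the probe are the same 9 letters as bases 2 to 10 of the miRNA with T for U. They run in the same direction and are not the complement. The seed letters ACGCTCA occur in 57 of the 41000 probes (0.139%), and in 1 of the 8 probes of these genes. The complement of the seed, TGAGCGT, occurs in 54 of 41000 probes (0.132%) and in none of the 8. This search covered the 60 bases of each probe, on both strands, and not the transcripts. Among the 79 tested probes with at least 9 letters in the same direction as the miRNA, GPR172B and RASD2 were the 2 with an antagomir signal more than 1 (log2) above that of the other miRNAs (2.53%, beside 0.169% of all tested probes). Among the 98 with at least 9 letters of the complement there were also 2 (2.04%). The median log2 difference of the antagomir signal was 0.0052 for the 79 probes and 0.0094 for all tested probes. GPR172B itself set the length of 9 letters, so these shares are a description.

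GPR172B, a riboflavin transporter of the plasma membrane, had a bright antagomir channel on the miR-574-3p arrays. Its processed signal, corrected for background and normalized between dyes by the scanner software, was 220, 232 and 245 in antagomir cells of miR-574-3p. Over the remaining 12 arrays, the antagomir signal was 22.7 at the lowest, 36.7 at the median and 58.7 at the highest. The groups did not overlap, which held for 0.729% of all probes in this direction. In the mimic channel the signal was 30.1, 29.9 and 37.9 on the miR-574-3p arrays, inside the range of 23.4 to 42.0 on the other 12. All 15 arrays measured the probe well above background in both channels.

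**Figure D1:**
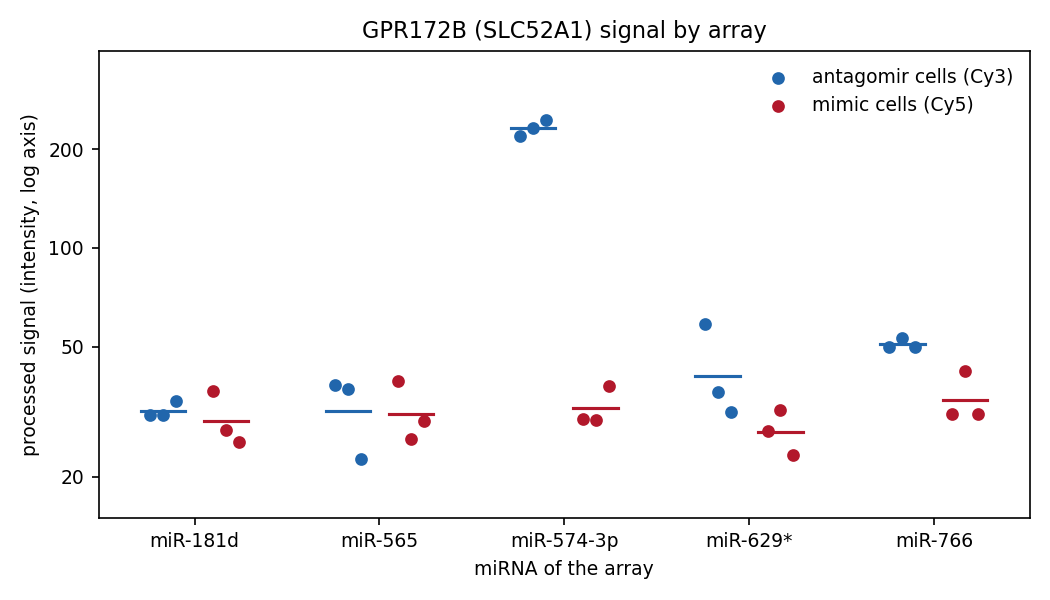
Processed signal of the GPR172B probe on a log axis for antagomir cells (Cy3, blue) and mimic cells (Cy5, red). Each point is an array, 3 for each miRNA, and the lines are geometric means; the 3 antagomir signals of miR-574-3p, from 220 to 245, lie above all other points, while the mimic signals lie between 23.4 and 42.0.

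The log2 ratio of mimic to antagomir signal was -2.87, -2.96 and -2.69 on the 3 miR-574-3p arrays, with a mean of -2.84 (SD 0.135, n = 3). On the other 12 arrays it ranged from -1.09 to 0.39, with a median of -0.38. Antagomir cells thus had a 7.16-fold higher signal than mimic cells on the miR-574-3p arrays, and the ratio was the 9th lowest of 31365 tested probes. A log2 ratio under -1 occurred for 1.4% of probes. Set against its own dye for the other 4 miRNAs, the antagomir signal was higher by 2.57 (log2) and the mimic signal by 0.04. Only 2 other probes had a larger rise in the antagomir channel, and 0.169% of probes had one over 1. Within slides, the antagomir signal exceeded that of miR-565 by 2.83 on slide 2 (2 against 2 arrays) and that of miR-629* by 2.38 on slide 3 (1 against 3 arrays). The mimic differences were -0.01 and 0.24. When normexp and loess replaced the processing of the scanner software, the mean ratio was -1.77.

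For the other 4 miRNAs, the ratio of GPR172B could be tested against 0, and none passed (limma, Benjamini-Hochberg over all tested probes). The ratio was 0.25, -0.15 and -0.42 for miR-181d and 0.04, -0.505 and 0.39 for miR-565, with both signs in each. It was -1.09, -0.18 and -0.43 for miR-629* (mean -0.57, standard error 0.194, adjusted p = 0.0793). For miR-766 it was -0.68, -0.34 and -0.68 (mean -0.57, standard error 0.194, adjusted p = 0.16). All 6 arrays of the latter pair of miRNAs were below 0. The miR-629* value passed with normexp and loess, at a ratio of -0.32 (adjusted p = 0.0337), with the error-weighted mean (adjusted p = 0.000563) and without replicate 1 of miR-565, at an unchanged ratio (adjusted p = 0.0397). Without that replicate its standard error stayed at 0.194, and 34.7% of all probes passed for miR-629*, beside 10.2% with all arrays. The miR-766 value passed with the error-weighted mean only (adjusted p = 0.00047), which takes its error from the scanner software and not from the arrays.

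**Figure D2:**
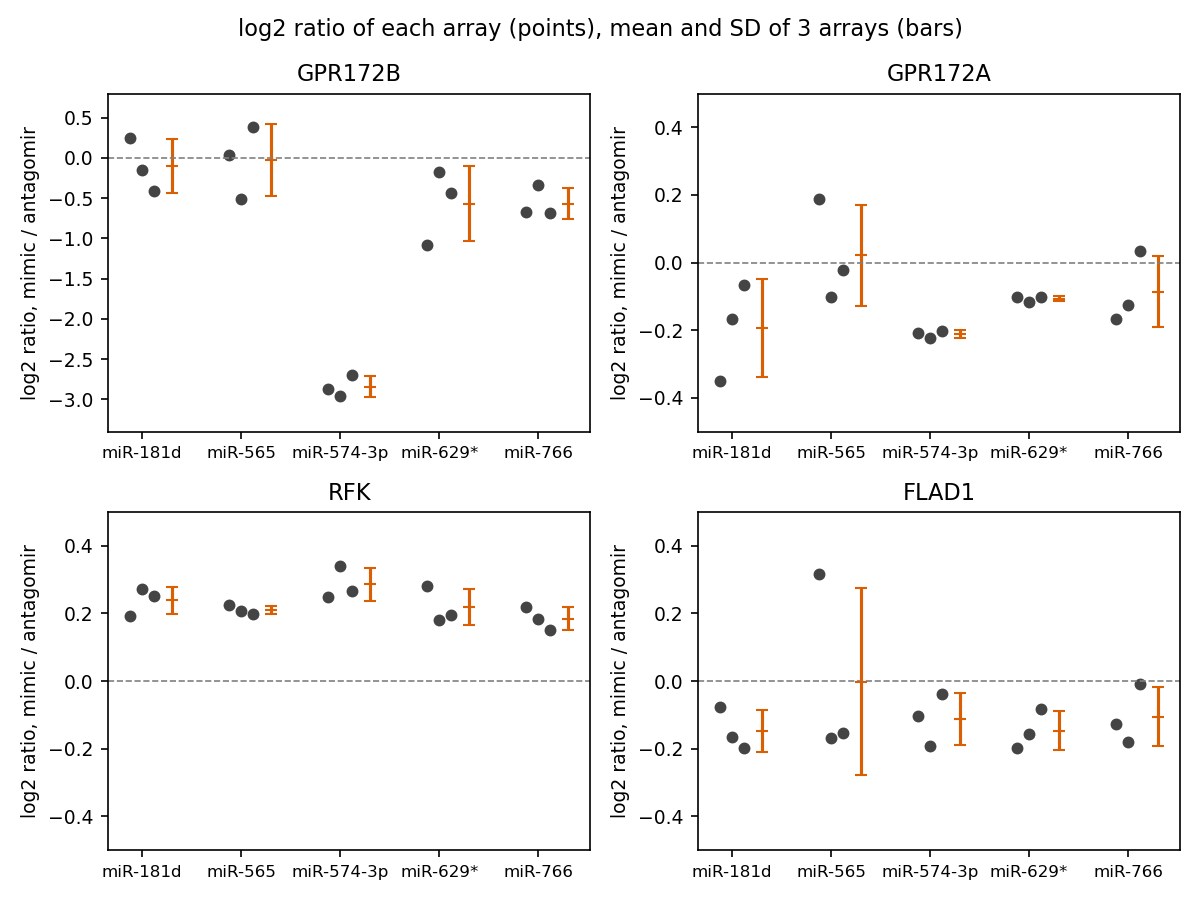
log2 ratio of mimic to antagomir signal for the brightest probe of GPR172B, GPR172A, RFK and FLAD1 on each of 15 arrays (points), with the mean and SD of 3 arrays beside them; the axis of GPR172B is wider. GPR172B on miR-574-3p lies between -2.96 and -2.69, and RFK lies above 0 on all 15 arrays.

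GPR172A, the widely expressed transporter, was bright on all arrays and showed no such change. Its probe (NCBI36, chr8:145555563-145555622, plus strand) had a signal of 9050, 9980 and 9630 in antagomir cells of miR-574-3p and of 7840, 8550 and 8370 in mimic cells. The other 12 arrays ranged from 6770 to 12600 in the antagomir channel and from 6310 to 14400 in the mimic channel, so that the miR-574-3p signals lay inside both ranges. The log2 ratio was -0.21, -0.22 and -0.20 on the miR-574-3p arrays (mean -0.21, standard error 0.0606, limma adjusted p = 0.0623). For miR-181d it was -0.35, -0.17 and -0.07 (mean -0.19, adjusted p = 0.0761). The means were 0.02 for miR-565, -0.11 for miR-629* and -0.09 for miR-766, with adjusted p values of 0.277 to 0.813. The ratio was below 0 on 13 of 15 arrays, the exceptions being replicate 1 of miR-565 at 0.19 and replicate 3 of miR-766 at 0.03.

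Relative to the mean of the other miRNAs, the ratio of GPR172A on miR-574-3p differed by -0.12 (95% interval -0.27 to 0.03, limma adjusted p = 0.591), an interval that does not reach a change of 1 on the log2 scale. Its antagomir signal differed by 0.09 (-0.0032 to 0.19, adjusted p = 0.26). Without replicate 1 of miR-565, the spread of GPR172A between arrays was smaller (standard error 0.0469), and its ratio passed the test for miR-574-3p (adjusted p = 0.00695) and miR-181d (adjusted p = 0.00923). In that setting 22.1% and 27.8% of all probes passed for these miRNAs. Both also passed with normexp and loess, at -0.23 for miR-574-3p (adjusted p = 0.0346) and -0.22 for miR-181d (adjusted p = 0.0356). The probes of GPR172B and GPR172A share no stretch of more than 9 letters. In their best alignment 41 of 57 bases were identical (71.9%).

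C20orf54, the transporter known from the intestine, was not measured reliably. Its probe (NCBI36, chr20:689010-689069, minus strand) was well above background on 1 array in each channel, 2 of 15 arrays in all. Its signal was 2.05 to 8.38 in antagomir cells and 1.26 to 9.33 in mimic cells, and the log2 ratio ranged from -2.00 to 1.5. On the miR-574-3p arrays the ratio was -2.00, 0.94 and -1.23 without any signal well above background. No test was made for this gene.

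RFK, which makes FMN, had a higher signal in mimic than in antagomir cells of every miRNA by its brightest probe. This probe (NCBI36, chr9:78191423-78191482, minus strand) had signals of 3570, 3760 and 3820 in antagomir cells of miR-574-3p and of 4240, 4760 and 4590 in mimic cells. The log2 ratio was 0.25, 0.34 and 0.27 (mean 0.29, standard error 0.0366, limma adjusted p = 0.00072). It was 0.19, 0.27 and 0.25 for miR-181d (adjusted p = 0.00396) and 0.22, 0.21 and 0.20 for miR-565 (adjusted p = 0.0058). It was 0.28, 0.18 and 0.20 for miR-629* (adjusted p = 0.00487) and 0.22, 0.18 and 0.15 for miR-766 (adjusted p = 0.0221). The ratio was thus above 0 on 15 of 15 arrays, and so on every slide, as for 5.6% of all probes.

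Counting the brightest probe of each gene, 5 of 19 ratios passed the test, all 5 of them RFK and higher in mimic cells. The share of all probes called higher was 3.52% for miR-181d, 8.48% for miR-565, 2.78% for miR-574-3p, 5.8% for miR-629* and 1.53% for miR-766, and 0.676% were higher in all 5. At an unadjusted p under 0.05, 9 of 19 ratios passed. The share of all probes at this unadjusted threshold was not counted, here or in the comparisons below. RFK did not differ detectably between the miRNAs. Its difference from the mean of the other miRNAs was between -0.05 and 0.07 (limma adjusted p of 0.593 to 1), with 95% intervals from -0.14 to 0.16. A bias of the dyes that every array shares drops out of this difference but not of the ratio, and with Cy5 always on the mimic cells the part of the dye in the RFK ratio cannot be told apart from the treatment. With the slide as a random block, none of the 5 ratios passed (0.18 to 0.29, lowest adjusted p = 0.0588). The correlation between arrays of a slide was estimated at 0.73. In that fit 5% of all probes passed for miR-181d, 0.14% for miR-565, 0.529% for miR-574-3p, 0.0542% for miR-629* and 0% for miR-766. None of the 5 RFK ratios passed with the error-weighted mean either (adjusted p of 0.124 to 0.416). The miR-766 ratio also missed the threshold without any single replicate of miR-766 (0.17 to 0.20, adjusted p of 0.0633 to 0.235).

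The second RFK probe gave other ratios. It lies at chr9:78190655-78190714 (NCBI36, minus strand) and was well above background on all arrays. Its log2 ratio was 0.09, 0.07 and 0.14 for miR-181d, -0.26, 0.09 and 0.07 for miR-565, -0.20, -0.17 and -0.14 for miR-574-3p, 0.02, 0.11 and 0.02 for miR-629*, and 0.04, -0.02 and 0.01 for miR-766. None of its 5 mean ratios passed (limma adjusted p of 0.126 to 0.956). The ratio of the brightest probe was higher on 15 of 15 arrays, by 0.07 to 0.51 with a mean of 0.24. When both probes were averaged, the ratio of RFK passed for miR-181d only.

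**Figure D3:**
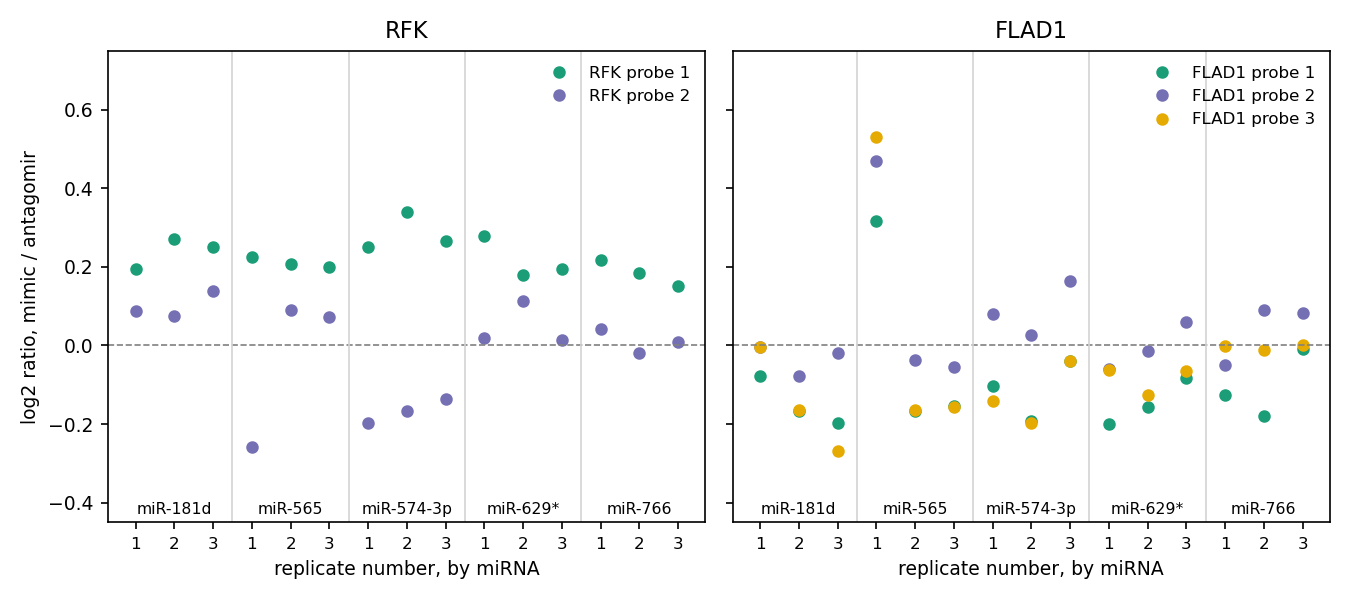
log2 ratio of mimic to antagomir signal for each RFK probe (left) and FLAD1 probe (right) on the 15 arrays, ordered by miRNA and replicate; probe 1 is the brightest. RFK probe 1 lies above probe 2 on every array, by 0.07 to 0.51, and all FLAD1 probes of replicate 1 of miR-565 lie apart at 0.32, 0.47 and 0.53.

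In antagomir cells, the second RFK probe was higher for miR-574-3p than for the other miRNAs by 0.17 (95% interval 0.12 to 0.23, limma adjusted p = 0.00124). The same comparison called 4.22% of all probes higher, 4.45% lower and 8.67% in either direction. The signals were 1450, 1610 and 1520 against 1050 to 1640 on the other 12 arrays before quantile normalization within the dye, so that the groups overlapped. The brightest probe did not show it, at -0.02 (-0.17 to 0.13, adjusted p = 0.905). Which transcripts each probe detects was not examined.

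FLAD1, which makes FAD, has 3 probes, at chr1:153227754-153227813, chr1:153229325-153229465 and chr1:153223138-153227235 (NCBI36, plus strand). The latter pair of probes spans 141 and 4098 bases of the genome with 60 bases of sequence, that is across introns. The log2 ratio of the brightest probe was -0.10, -0.19 and -0.04 on the miR-574-3p arrays (mean -0.11, adjusted p = 0.501). It was below 0 on 14 of 15 arrays. The exception, replicate 1 of miR-565, had 0.32, against -0.17 and -0.15 in replicates 2 and 3. None of the 15 ratios of the 3 probes passed (limma adjusted p of 0.247 to 0.992).

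Replicate 1 of miR-565 decided the spread of FLAD1. The other probes had ratios of 0.47 and 0.53 on that array, and of -0.16 to -0.04 on replicates 2 and 3. Without this array the standard error of the brightest probe fell from 0.0783 to 0.0389, or 0.0477 for miR-565 itself. The ratio then passed for miR-181d (-0.15, adjusted p = 0.0147), miR-565 (-0.16, adjusted p = 0.0392) and miR-629* (-0.15, adjusted p = 0.0133), where 27.8%, 15.9% and 34.7% of all probes passed. In the same setting 11 of the 19 ratios of the 4 genes passed in place of 5, 5 of them RFK and 6 lower in mimic cells.

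No ratio of GPR172A, RFK or FLAD1 differed from the other miRNAs by its brightest probe, 0 of 15 (limma adjusted p of 0.298 to 1, 1 of 15 at an unadjusted p under 0.05). The exception at the unadjusted level was GPR172A on miR-565, at 0.17 (95% interval 0.03 to 0.32), which included replicate 1. The share of all probes called in these comparisons was 0% for miR-181d, 0.105% for miR-565, 1.23% for miR-574-3p, 0.0542% for miR-629* and 0.00638% for miR-766. With the slide as a fixed block, which leaves out miR-766, 4 of 12 passed, while 53.4% of all probes passed for miR-181d, 17.8% for miR-565 and 29.5% for miR-574-3p. FLAD1 then differed by -0.44 on miR-181d (adjusted p = 0.00173), by 0.18 on miR-565 (adjusted p = 0.035) and by 0.20 on miR-574-3p (adjusted p = 0.0149), where the value without the block was -0.01. GPR172A differed by -0.31 on miR-181d (adjusted p = 0.0386). In that fit replicate 1 of miR-565 is the only array that links the slide of miR-181d to the others.

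The channels were also compared by dye. In antagomir cells, none of 15 differences of the brightest probes passed (limma, lowest adjusted p = 0.0939, 2 of 15 at an unadjusted p under 0.05), and none of 15 in mimic cells (lowest adjusted p = 0.266, 0 of 15 at an unadjusted p under 0.05). The antagomir comparison called 1.23% of all probes for miR-181d, 1.95% for miR-565, 0.832% for miR-629* and 3.63% for miR-766, and the mimic comparison 0.258% for miR-766 and 0% for the others. Of the remaining probes, the second RFK probe and 1 FLAD1 probe passed, both in antagomir cells of miR-574-3p. The FLAD1 probe at chr1:153229325-153229465 was lower by 0.16 (95% interval 0.08 to 0.23, adjusted p = 0.0116), with signals of 563, 658 and 602 against 491 to 831 on the other arrays. The other FLAD1 probes differed by -0.07 and -0.08 in the same direction without passing (adjusted p = 0.347 and 0.475). Without replicate 3 of miR-574-3p the difference was -0.13 (adjusted p = 0.0951).

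**Figure D4:**
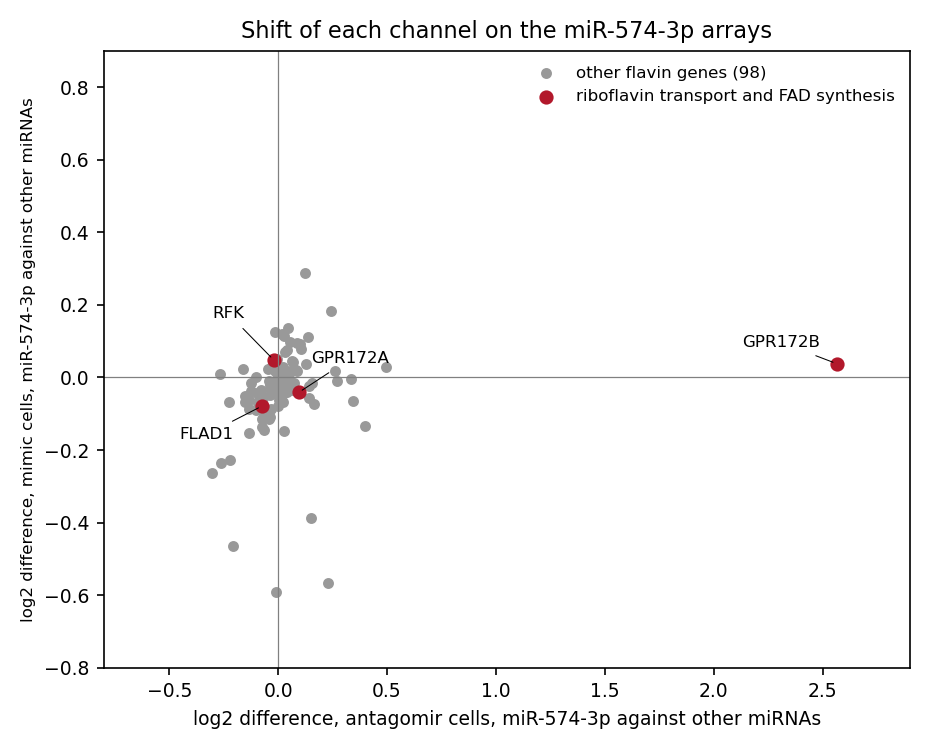
log2 difference of the signal on the miR-574-3p arrays from the mean of the other miRNAs, in antagomir cells (horizontal) and mimic cells (vertical), for the brightest probes of GPR172B, GPR172A, RFK and FLAD1 (red) and of 98 other flavin genes (grey). GPR172B lies at 2.57 and 0.04; GPR172A, RFK and FLAD1 lie within 0.1 of 0 on both axes.

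The genes with ratios most like those of GPR172B over the 15 arrays were named by Pearson correlation among 22956 genes. They were the transcript BQ017638 (r = 0.965), FLJ11236 (0.959), SSBP2 (0.944), the transcript AA564209 (0.939) and FTHL12 (0.937). SSBP2 encodes a single-stranded DNA-binding protein, and FTHL12 belongs to the ferritin heavy chain-like copies, which may share signal with other copies. The 15 points share the 3 miR-574-3p arrays, and without these the correlations over 12 arrays were 0.631 to 0.75. The same 12 arrays entered the correlation that picked these genes, so both sets of correlations are a description. On the miR-574-3p arrays BQ017638 had a mean log2 ratio of -0.94, with a mean antagomir signal of 1630 against 822 on the other arrays. FLJ11236 and SSBP2 had mean ratios of -0.22 and -0.23, far smaller than that of GPR172B. For the other genes of riboflavin transport and FAD synthesis, the correlation with GPR172B was 0.367 for GPR172A, 0.197 for C20orf54, -0.645 for RFK and 0.132 for FLAD1. Without the miR-574-3p arrays it was between -0.243 and 0.273.

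Other genes of flavin transport, turnover and use were examined by lists, in all 116 genes of which 98 had a brightest probe that passed the filter. Over the 5 miRNAs, 38 of 490 ratios passed the test, 18 higher and 20 lower in mimic cells. Per miRNA, 4 of 98 genes (4.08%) passed for miR-181d, 11 (11.2%) for miR-565, 9 (9.18%) for miR-574-3p, 11 (11.2%) for miR-629* and 3 (3.06%) for miR-766. The corresponding shares of all probes were 6.33%, 12.9%, 5.37%, 10.2% and 2.24%. The median log2 ratio of the 98 genes was between -0.04 and 0.03, beside 0.01 to 0.03 for all tested probes. Without replicate 1 of miR-565, 131 of 490 passed, and 15.9% to 34.7% of all probes did. Leaving out another replicate gave 19 to 52, and the slide as a random block left 3, where 0% to 5% of all probes passed. The share of all probes without another replicate was not counted.

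Carriers and flavin turnover enzymes had 7 of 10 genes measured. SLC25A32, the mitochondrial folate and FAD carrier, had mean ratios of 0.12 to 0.20, and ABCG2, an exporter of riboflavin, of -0.25 to 0.03, and none passed; both are named for their role. ACP5, an acid phosphatase, was lower in mimic cells of miR-574-3p, with ratios of -0.89, -0.93 and -0.45 (mean -0.76, limma adjusted p = 0.0449). Its signal was dim, at a mean of 24.4 in antagomir and 14.4 in mimic cells, and the call was lost in 16 of 27 alternative settings, with a ratio of -0.16 under normexp and loess. BLVRB, a flavin reductase, was lower for miR-574-3p, at -0.26, -0.32 and -0.33 (adjusted p = 0.00851), and ACP1, an acid phosphatase, for miR-565, at -0.65, -0.13 and -0.11 (mean -0.30, adjusted p = 0.0289). Without replicate 1 of miR-565 the ratio of ACP1 was -0.12 (adjusted p = 0.0159), and the slide block ended the call (adjusted p = 0.221). The same block ended the call of BLVRB, at -0.23 for miR-574-3p (limma adjusted p = 0.352). With that block 0.14% of all probes passed for miR-565 and 0.529% for miR-574-3p. ACP5, BLVRB and ACP1 were the only calls in this list. They were 2 of 7 genes for miR-574-3p (28.6%, beside 5.37% of all probes) and 1 of 7 for miR-565 (14.3%, beside 12.9%).

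Mitochondrial flavoenzymes had 34 of 36 genes measured, with 3 to 7 of them called for the 4 miRNAs other than miR-766, where 2 were. The shares were 11.8% for miR-181d, 11.8% for miR-565, 8.82% for miR-574-3p, 20.6% for miR-629* and 5.88% for miR-766. The corresponding shares of all probes were 6.33%, 12.9%, 5.37%, 10.2% and 2.24%. Of the calls, 7 were higher and 13 lower. ACADVL, which starts the oxidation of very long-chain fatty acids, was lower in mimic cells of all 5 miRNAs (-0.32 to -0.22), and AIFM1, a flavoprotein of the intermembrane space, was higher in all 5 (0.16 to 0.24). These were picked after their values were seen. With the slide as a random block, ACADVL passed for no miRNA (lowest adjusted p = 0.189). AIFM1 then passed for miR-181d only (adjusted p = 0.0454, and 0.259 or more for the others). That fit called 5% of all probes for miR-181d and 0% to 0.529% for the other miRNAs. The difference from the other miRNAs passed for neither gene (adjusted p of 0.726 to 1), and the dye cannot be told apart from the treatment; 0.242% of probes were lower and 0.676% higher in all 5. ACADS, the short-chain acyl-CoA dehydrogenase, had ratios of -0.62, -0.56 and -0.62 for miR-181d (adjusted p = 0.0313), and the call was lost without any single one of these arrays (adjusted p of 0.119 to 0.199).

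Peroxisomal and cytosolic flavoenzymes had 33 of 37 genes measured, and 10 ratios passed, 7 higher and 3 lower. The shares were 0% for miR-181d, 12.1% for miR-565, 6.06% for miR-574-3p, 9.09% for miR-629* and 3.03% for miR-766. The corresponding shares of all probes were 6.33%, 12.9%, 5.37%, 10.2% and 2.24%. For miR-565, ACOX2, an oxidase of bile acid precursors and branched fatty acids, had ratios of 0.73, 0.23 and 0.24 (adjusted p = 0.0137). IL4I1, an L-amino acid oxidase, had 1.16, 0.23 and 0.44 (adjusted p = 0.0411), and TXNRD1, the cytosolic thioredoxin reductase, had -0.89, -0.32 and -0.29 (adjusted p = 0.0182). In each of them the first value, replicate 1 of miR-565, was the most extreme. Without that array the mean ratio was 0.23 for ACOX2, 0.34 for IL4I1 and -0.30 for TXNRD1, and IL4I1 and TXNRD1 no longer passed. All 3 calls were lost with the slide as a block (adjusted p = 0.219, 0.26 and 0.267). They were also lost in a fit of the miR-565 arrays alone (adjusted p = 0.617, 0.622 and 0.617). With the slide as a block 0.14% of all probes passed for miR-565, beside 12.9% without it. The share in the fit of the miR-565 arrays alone was not counted.

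Membrane and secretory flavoenzymes had 24 of 33 genes measured, and 5 ratios passed, 4 higher and 1 lower. The shares were 0% for miR-181d, 8.33% for miR-565, 8.33% for miR-574-3p, 4.17% for miR-629* and 0% for miR-766. The corresponding shares of all probes were 6.33%, 12.9%, 5.37%, 10.2% and 2.24%. PCYOX1L, related to prenylcysteine oxidase, had ratios of 0.65, 0.22 and 0.30 for miR-565 (adjusted p = 0.00957), and a mean of 0.26 without replicate 1. This call was also lost with the slide as a block (adjusted p = 0.205) and with the miR-565 arrays alone (adjusted p = 0.617). With that block 0.14% of all probes passed for miR-565. The NADPH oxidases CYBB, NOX3, NOX4 and NOX5 and the dual oxidases DUOX1 and DUOX2 did not pass the filter for dim signals.

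In the antagomir channel, 12 of 490 differences of flavin genes passed, 8 of them on miR-574-3p, where 4 were higher and 4 lower. These are 8 of 98 genes, beside 8.67% of all probes (4.22% higher and 4.45% lower). With the slide as a block, which leaves out miR-766, 4 of 392 passed, all on miR-574-3p, where 3.61% of all probes passed. On the miR-574-3p arrays, the antagomir signal of the 98 genes shifted by -0.30 to 0.50 (log2), below the 2.57 of GPR172B, which was chosen for its ratio there.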

How the data were processed

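RNA of A549 cells was hybridised to 15 dual-color whole human genome arrays, 3 for each of 5 miRNAs, grouped by their labels. The authors deposited the output of Agilent Feature Extraction 9.5.3 (9.5.3.1 in the file headers). The deposited intensity values are processed signals, corrected for background and normalized between dyes, beside mean signals and backgrounds. Beside them the deposited files give a log10 ratio per spot and its error, a score of the error model of the software, and ratio or fold values in linear form were computed here from what the authors deposited. The series table of the authors equals this log10 ratio (largest difference 0). The Rosetta Resolver step of the study was not used here.

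Log2 ratios of Cy5 over Cy3 were computed in R 4.3.3 from the deposited signals, without 1639 control spots per array and 2296 outlier-flagged spots, and averaged to 41000 probes; no spot was saturated. One model of all 15 arrays, with a coefficient for each miRNA, was fitted in limma 3.58.1 (lmFit, eBayes, trend on intensity) and tested against 0 and against the mean of the other 4. Each channel was quantile normalized within its dye and compared likewise. Adjustment of p values by Benjamini-Hochberg covered the 31365 probes that at least 3 arrays measured well above background in 1 of the channels, and a value passed under 0.05. The brightest probe stood for a gene. Both ratio tests were run on simulated log ratios with 200 changed probes for miR-574-3p. Of changes of 1 (log2), 78% were recovered against 0 and 74% against the other miRNAs. Of changes of 0.5, 42% and 35% were recovered, and there were 4 and 6 false calls. The simulated arrays were independent of each other, so the correlation between arrays of a slide was not covered.

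Named genes were all members, the 5 genes most correlated with GPR172B, and, of the other flavin genes, the 3 largest rises and 3 largest falls that passed with the same sign on 3 arrays. Other flavin genes in the text were chosen after their values were seen. The members and lists were chosen with earlier results of these data known. Probe positions are those of the array files (NCBI36). Current symbols, all 5 matched, and the miRNA sequence are from RefSeq (GRCh38.p14); transcripts and exon positions were not used here. The alternatives were normexp (offset 50) with loess, median centring, the series table, an error-weighted mean, flagged spots kept, the mean of a gene's probes, other filters on dim probes, no intensity trend, a fit of 3 arrays only, replicate and slide blocks, and each replicate left out.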

Additional observations from a re-analysis of the deposited data

Results flagged for a closer look

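Each result here is a flavin gene whose ratio (log2) for miR-574-3p differed from the mean of the other miRNAs by a test of the difference itself. They are 3 of the 98 flavin genes tested, beside 1.23% of all probes. Without replicate 1 of miR-565 they were 6 of 98, beside 5.58% of all probes, and with the slide as a block 43 of 98, beside 29.5%. BLVRB, a flavin and biliverdin reductase, differed by -0.31 (standard error 0.0636, limma adjusted p = 0.0322), with ratios of -0.26, -0.32 and -0.33 on the 3 arrays. Its antagomir signal was higher than on the other arrays by 0.34 (adjusted p = 0.000141), and its mimic signal differed by -0.0041 (adjusted p = 0.996). QSOX2, a sulfhydryl oxidase of the secretory pathway, differed by -0.41 (standard error 0.0747, adjusted p = 0.0173), with ratios of -0.46, -0.38 and -0.31 and an antagomir signal higher by 0.34 (adjusted p = 3.96e-05). The mean of its probes gave a difference of -0.15 (adjusted p = 0.828) and an antagomir shift of 0.08 (adjusted p = 0.59). CYB5R3, cytochrome b5 reductase, differed by 0.29 (standard error 0.0597, adjusted p = 0.0326), with ratios of 0.17, 0.23 and 0.30 and an antagomir signal lower by 0.27 (adjusted p = 0.00301).

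The calls of all 3 differences were lost when any single miR-574-3p replicate was left out, with adjusted p values of 0.138 to 0.209 for BLVRB, 0.0788 to 0.17 for QSOX2 and 0.116 to 0.22 for CYB5R3, while each kept its direction under all 25 alternatives. Several alternatives, such as other filters on dim probes, leave the difference itself unchanged, so its direction could not reverse under them. Counting all 25 alternatives, the call was lost under 11 for BLVRB, 4 for QSOX2 and 12 for CYB5R3.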

How the results depend on the processing

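The log2 ratio of GPR172B on the miR-574-3p arrays was -1.77 with normexp and loess, and -2.91 to -2.78 without single replicates. The 5 of 19 ratios that passed became 8 with normexp and loess, 1 by averaging the probes of a gene, 0 under the slide block and 2 by the error-weighted mean, and 4 to 11 without single replicates, the 11 without replicate 1 of miR-565. The 0 differences between miRNAs became 4 with the slide as a block and stayed at 0 without any single replicate. Median centring of each dye gave 2 calls in antagomir cells, both FLAD1 (0.16 on miR-565 and -0.23 on miR-766), and the slide block gave 1 in mimic cells, GPR172A on miR-181d (-0.54, where 47.6% of all probes passed), in place of 0; without any single replicate both counts were 0. The 38 calls among the flavin genes became 3 under the slide block, 18 without an intensity trend and 59 with only the 3 arrays, and 19 to 131 without single replicates, the 131 without replicate 1 of miR-565. With the slide as a random block, 0% to 5% of all probes passed for a miRNA, and without replicate 1 of miR-565 15.9% to 34.7% did. Under the other alternatives the share of all probes was not counted, so their counts cannot be set against it. The causes of these changes in counts were not tested. Replicate numbers did not pair the arrays (median correlation of deviations 0.0569 within a number and -0.0458 between numbers), and with the replicate number as a block the counts were 5, 0, 0, 0 and 36 in the order above. Of 480 values of single genes under alternatives, 390 kept their direction and side of the threshold, 90 lost the call and 0 reversed. Dim probes limit C20orf54, and GPR172B and ACP5 in part, and 3 arrays per miRNA limit all tests.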
